A study of Mus musculus with 4 samples.

Results

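The IL-1 and IL-18 receptor family was described by 10 genes among the 50600 gene rows of the deposited count tables. The samples are mouse cells labelled regulatory T cell. The ligand-binding receptors were Il18r1, Il1rl1 and Il1r1, and the accessory chains were Il18rap and Il1rap. The other members were the decoy receptor Il1r2, the inhibitory receptor Sigirr, the adaptor Myd88 and the kinases Irak1 and Irak4. The genes were chosen by symbol, through a match of the gene identifiers to GENCODE M21 on the build mm10, and all 10 were found. RNA, labelled total RNA although the cited library protocol is titled for poly(A) RNA, was sequenced in 4 libraries, biological replicates 1 to 4, of primary cells labelled regulatory T cell from C57BL/6NJ mice. The labels give no age or sex, no treatment and no second group, name 1 donor record for all 4 biosamples, and cite a protocol for differentiating CD4 T cells; the column names inside the files carry the word activated before a mark of 0 h. Nothing states that the 4 biosamples came from separate animals. The SDs and the p-values of the variability test therefore describe how far these 4 libraries differ. Some of that may come from handling rather than from the mice. The p-values of the ratios ask only whether a member lay above another within these same libraries.

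In this family a ligand-binding receptor pairs with an accessory chain, and the TIR domains of the pair recruit the adaptor Myd88 inside the cell. Myd88 assembles the kinases Irak4 and Irak1, which pass the signal to NF-kappaB and MAP kinases. In regulatory T cells the IL-33 receptor Il1rl1 is known from tissue-resident and effector populations, Il18r1 is known to sense interleukin-18, and Il1r2 is known as a decoy that binds interleukin-1 without signalling. Sigirr is a family member known to dampen signalling through the same TIR contacts.

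Depth ran from 23000465 to 62090744 counts per library. All 7 regulatory T cell markers reached 1 TPM (a transcript level in which each count is divided by exon length and scaled to one common total) in every library, with Izumo1r at 167 ± 8.51 TPM and Tnfrsf18 at 107 ± 3.81 TPM the highest and Foxp3, the defining factor, at 8.28 ± 0.867 TPM (SD, n = 4). The other 4 were lower, with Ctla4 at 7.77 ± 0.959 TPM, the interleukin-2 receptor chain Il2ra at 5.52 ± 2.76 TPM, Ikzf2 at 1.34 ± 0.194 TPM and Nrp1 at 1.29 ± 0.173 TPM. All 6 CD4 T cell markers reached 1 TPM too, led by Trac and by Cd4 at 1067 ± 31.4 TPM. Over all protein-coding genes, 45.7% reached 1 TPM in every library. Foxp3, Ctla4, Il2ra, Ikzf2 and Nrp1 were thus far below Cd4. What share of the cells were regulatory T cells was not tested, and the name used here is that of the label. In bulk RNA, fewer cells of a type and less RNA per cell cannot be told apart.

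Levels within the family ran from above 100 TPM to next to no counts, and both the receptors and the accessory chains held high and low members. A total of 6 of the 10 members (Sigirr, Irak1, Myd88, Il18r1, Irak4 and Il1rap) reached 1 TPM in all 4 libraries, beside 45.7% of all 21764 protein-coding genes. The median of the members' mean levels was 14.2 TPM, beside 0.379 TPM over all protein-coding genes and 33.3 TPM over the 9948 that passed 1 TPM in every library. The other 4 members, Il18rap, Il1rl1, Il1r1 and Il1r2, had means below 1 TPM.

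**Figure D1:**
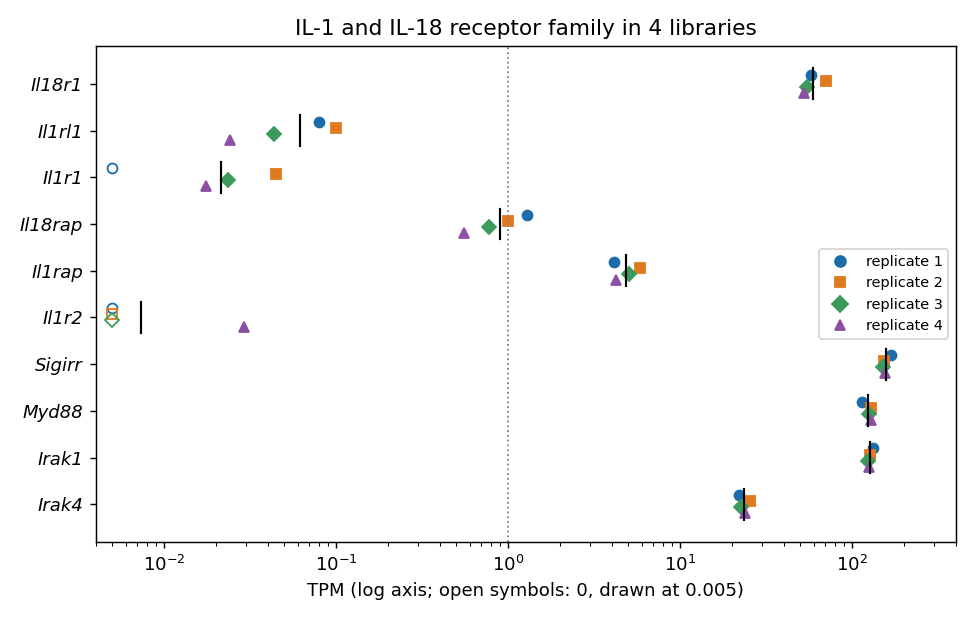
Level of each of the 10 members in TPM (log axis) in the 4 libraries, with a black tick at the mean and a dotted line at 1 TPM; open symbols mark libraries with no count, drawn at the left. Sigirr, Irak1 and Myd88 sit above 100 TPM in every library, whereas Il1rl1, Il1r1 and Il1r2 stay below 0.1 TPM.

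Of the members, 5 (Il1r2, Il1r1, Il1rl1, Il18r1 and Il18rap) lie in that order on the plus strand of chromosome 1 on mm10 (GRCm38), together with Il1rl2, the receptor of the IL-36 cytokines, between Il1r1 and Il1rl1. The 6 receptor genes span 477.6 kb. The end of Il1rl1 and the start of Il18r1 are 136 bases apart. The sequences at the starts of 3 neighbours, Il1rl1, Il18r1 and Il18rap, are shown because these genes lie side by side, are read in the same direction and had very unlike levels. They come from RefSeq on GRCm38.p6, plus strand, 5′ to 3′, and run to 50 bases past the start; the Il18r1 stretch begins at the base after the annotated end of Il1rl1, and the others begin 250 bases before the start. RefSeq lists 3 starts for Il18r1, of which the first is shown, and 2 for Il1rl1, and capitals mark matches to the motifs named below.
Il18r1 start, chr1:40465416-40465601: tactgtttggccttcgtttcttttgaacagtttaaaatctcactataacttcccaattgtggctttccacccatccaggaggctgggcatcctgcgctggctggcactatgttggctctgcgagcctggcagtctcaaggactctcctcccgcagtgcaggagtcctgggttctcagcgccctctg
Il1rl1 first start, chr1:40429320-40429619: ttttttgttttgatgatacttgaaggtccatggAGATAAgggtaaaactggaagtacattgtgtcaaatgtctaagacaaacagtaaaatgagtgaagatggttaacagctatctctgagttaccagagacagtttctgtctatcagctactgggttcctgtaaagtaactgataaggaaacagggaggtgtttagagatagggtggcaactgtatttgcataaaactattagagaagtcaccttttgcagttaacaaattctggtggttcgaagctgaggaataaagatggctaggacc
Il1rl1 second start, chr1:40439379-40439678: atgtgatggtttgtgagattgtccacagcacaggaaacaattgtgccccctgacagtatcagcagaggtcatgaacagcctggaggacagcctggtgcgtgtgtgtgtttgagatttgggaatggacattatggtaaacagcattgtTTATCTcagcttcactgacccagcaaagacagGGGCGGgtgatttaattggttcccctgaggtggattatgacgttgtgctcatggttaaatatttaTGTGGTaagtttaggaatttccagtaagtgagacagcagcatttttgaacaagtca
Il18rap start, chr1:40515112-40515411: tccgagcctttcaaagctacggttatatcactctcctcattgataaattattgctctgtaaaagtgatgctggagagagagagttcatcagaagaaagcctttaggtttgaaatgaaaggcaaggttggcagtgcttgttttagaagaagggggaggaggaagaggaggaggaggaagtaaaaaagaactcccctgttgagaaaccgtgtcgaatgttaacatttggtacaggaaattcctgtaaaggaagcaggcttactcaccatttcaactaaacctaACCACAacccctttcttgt

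Motifs were searched on both strands of the 32851 RefSeq windows of 300 bases, and none of them contains another. The TATA box, spelled TATAAA, occurs in 13.6% of all windows. The GC box, spelled GGGCGG, occurs in 35.7% of them. The core bound by Ets factors, spelled CCGGAA, occurs in 14.9%, and the core bound by Runx factors, spelled TGTGGT, in 16.8%. For GATA factors the letters AGATAA were used, found in 11.2% of windows. The first Il18r1 window held none of the 5, also over its full 300 bases, and its later starts held 1 Runx core in all. The first Il1rl1 window held a GATA core 217 bases before the start, and the second held a GATA core 103 bases, a GC box 71 bases and a Runx core 6 bases before the start. The Il18rap window held a Runx core on the minus strand, past the start. GC content was 44.7%, 51.3% and 57.0% in Il18r1 windows 1 to 3, 38.7% and 44.7% in the Il1rl1 windows and 42.3% in the Il18rap window. Of these, only the last Il18r1 window lay above the median of 52.7% over all windows. There were 33 CpG in the window of Il1rap, 22 in each window of Irak1 and 16 in those of both Irak4 and Il1r2. Il18r1 windows 1 to 3 held 5, 7 and 8, beside a median of 7 over all windows. Windows were present for 9 of the 10 members. A motif match is a description of letters, and the factors were not measured at these sites.

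Il18r1, which encodes the ligand-binding chain of the interleukin-18 receptor (ENSMUSG00000026070.15, chromosome 1, 40465552 to 40500854), was the highest ligand-binding member. Its level was 58.1 TPM in replicate 1, 70.6 TPM in replicate 2, 55.0 TPM in replicate 3 and 52.95 TPM in replicate 4, a mean of 59.2 ± 7.94 TPM (SD, n = 4) on 1767 to 5963 counts. Replicate 2 stood above the other libraries, which lay close together. The level exceeded that of 85.3% of protein-coding genes. The 3 protein-coding genes whose 4 values lay closest to it, by root mean square difference of log2(TPM+1), were the kinase gene Txk (0.0382), the activation receptor Cd69 (0.044) and the helicase gene Ddx52 (0.0517). Txk had 59.8, 68.4, 53.4 and 53.5 TPM in replicates 1 to 4, a likeness that the choice of the gene fixed.

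Il18rap encodes the accessory chain that Il18r1 needs to signal (ENSMUSG00000026068.11, chromosome 1, 40515362 to 40551705). Its level was 1.285 TPM in replicate 1, 0.997 TPM in replicate 2, 0.777 TPM in replicate 3 and 0.554 TPM in replicate 4, a mean of 0.903 ± 0.312 TPM (SD, n = 4) on 35 to 118 counts. Replicate 1 was the highest and replicate 4 the lowest, a 2.32-fold range, the widest among the 7 members with at least 35 counts in every library. Set per length and with 0.1 TPM added to both genes, Il18r1 exceeded Il18rap by a log2 ratio of 5.93 ± 0.39, which is 60.95-fold, and by 42.0-fold to 81.1-fold in the single libraries. The log2 ratio was 4.99 with 1 TPM added and 5.52 without the length correction. The message of the ligand-binding chain was thus in excess of that of its partner chain in 4 of 4 libraries (exact two-sided sign-flip test, p = 0.13, and 0.13 after Benjamini-Hochberg adjustment over 9 ratios). With 16 sign patterns no smaller p exists, and every ratio given here has this p, so none can reach 0.05.

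Markers of other lymphocytes that carry the interleukin-18 receptor, and of B cells, were set beside Il18rap. The counts of markers are to be read against the 45.7% of all protein-coding genes that reached 1 TPM in every library. Of the 7 natural killer cell markers, 3 did so (42.9%, near that share). Gzma at 4.75 ± 1.515 TPM and Eomes at 4.00 ± 0.789 TPM were the highest. The summed level of the 7 was 11.6, 16.6, 16.5 and 11.9 TPM in replicates 1 to 4, highest in replicates 2 and 3. Of the 4 T helper 1 and memory markers only Ccl5 (4.44 ± 0.764 TPM) reached 1 TPM, ahead of Cxcr3 (0.937 ± 0.385 TPM), and the sum ranged from 4.404 TPM in replicate 4 to 7.33 TPM in replicate 2. Of the 5 B cell markers 3 reached 1 TPM, with Cd79b (9.31 ± 3.78 TPM) and Cd79a (8.61 ± 3.91 TPM) the highest, and the sum was 36.55, 23.5, 26.9 and 10.9 TPM in replicates 1 to 4. The B cell sum thus shared its highest and its lowest library with Il18rap, and its part in the level of Il18rap was not tested. Of the CD8 T cell markers, Cd8b1 stood at 39.95 ± 2.55 TPM and Cd8a at 0.794 ± 0.288 TPM, and of the 3 innate-like T cell markers Trdc stood at 8.37 ± 0.874 TPM and Zbtb16 at 0.0981 ± 0.103 TPM. Zbtb16, on only 1 to 11 counts, fell from replicate 1 to 4 as Il18rap did (0.235, 0.119, 0.0284 and 0.0106 TPM). The sum of the 3 did not, being highest in replicate 2 (9.65 TPM) and lowest in replicate 3 (7.47 TPM). The part of such cells in the level of Il18rap was not tested either.

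Il1rl1, the interleukin-33 receptor also called ST2 (ENSMUSG00000026069.15, chromosome 1, 40429570 to 40465415), was close to the counting floor. It had 4, 12, 2 and 3 counts in replicates 1 to 4, which is 0.0799, 0.0993, 0.0435 and 0.0243 TPM and a mean of 0.0617 ± 0.0341 TPM (SD, n = 4). A total of 3 counts would have given up to 0.0652 TPM in the shallowest library. Il18r1 lay above Il1rl1 in 4 of 4 libraries with a log2 ratio of 8.53 ± 0.17 when 0.1 TPM was added to both genes. The size of that ratio rests on the addition, being 5.82 with 1 TPM and 9.82 with 0.01 TPM added. An equal addition to both genes cannot change its sign.

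Il1r1, the signalling receptor of interleukin-1 (ENSMUSG00000026072.12, chromosome 1, 40225080 to 40317257), had 0, 5, 1 and 2 counts in replicates 1 to 4 and a mean of 0.0215 ± 0.0185 TPM (SD, n = 4). Il1r2, its decoy (ENSMUSG00000026073.13, chromosome 1, 40074079 to 40125231), had 1 count in replicate 4 and none in the others, where 3 counts would have given up to 0.236 TPM. No ratio is given between these genes, since both were at or near the floor. The accessory chain Il1rap (ENSMUSG00000022514.14, chromosome 16, 26581704 to 26730117), which serves the receptors of interleukin-1, interleukin-33 and the IL-36 cytokines, was present without much of the first 2 of these partners. Its level was 4.15 TPM in replicate 1, 5.84 TPM in replicate 2, 5.08 TPM in replicate 3 and 4.23 TPM in replicate 4, a mean of 4.82 ± 0.80 TPM on 342 to 1163 counts. It exceeded Il1r1 in 4 of 4 libraries (log2 ratio 5.34 ± 0.09 with 0.1 TPM added, and 2.50 and 7.49 with 1 and 0.01 TPM). Set against the other accessory chain, Il1rap exceeded Il18rap by a log2 ratio of 2.34 ± 0.49, or 5.05-fold, and by 3.07-fold to 6.62-fold in the single libraries. The log2 ratio was 3.14 without the length correction and 1.62 with 1 TPM added, so its size depends on both choices. Of the 2, only the length correction could have changed its sign.

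Of the receptors outside the 10 members, Il1rl2, which signals with Il1rap, stood at 15.7, 18.3, 15.95 and 14.99 TPM in replicates 1 to 4, a mean of 16.2 ± 1.46 TPM (SD, n = 4) on 725 to 2189 counts. The chromosome 1 cluster therefore held a pattern of low and high neighbours, with means of 0.00731 TPM for Il1r2, 0.0215 TPM for Il1r1, 16.2 TPM for Il1rl2, 0.0617 TPM for Il1rl1, 59.2 TPM for Il18r1 and 0.903 TPM for Il18rap. A processed pseudogene, Gm17970, lies within the span of Il1rl2 on the same strand and held 241 counts over the 4 libraries. The neuronal relatives Il1rapl1 and Il1rapl2 had no count, where 3 counts would have given up to 0.0481 and 0.0958 TPM.

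**Figure D2:**
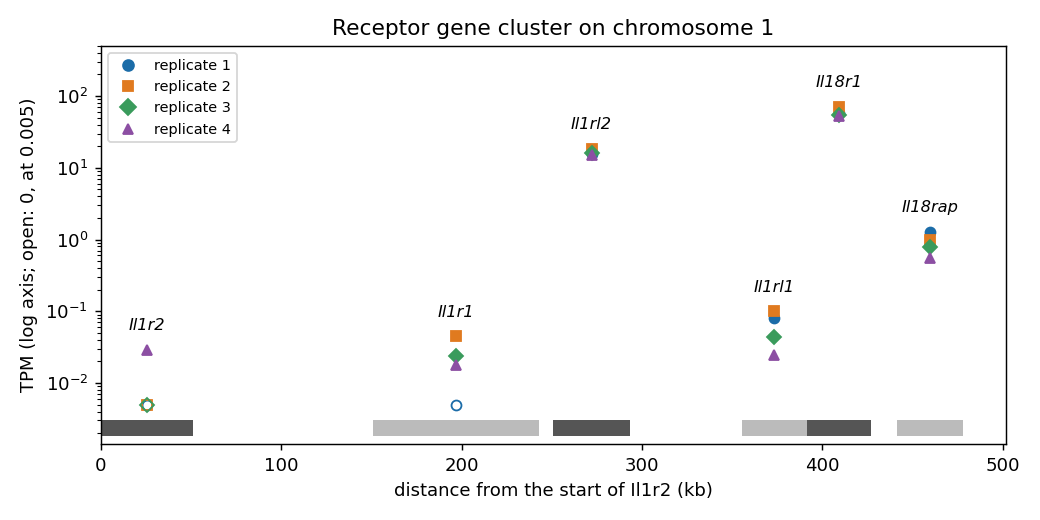
Levels of the 6 receptor genes of the chromosome 1 cluster in TPM (log axis), drawn at the middle of each gene against the distance in kb from the start of Il1r2; the bars at the foot show the genes' extents. By their means, Il18r1 at 59.2 TPM and Il1rl2 at 16.2 TPM stand above neighbours below 1 TPM on either side. In replicate 1 alone Il18rap reached 1.285 TPM.

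Sigirr (ENSMUSG00000025494.8, chromosome 7, 141091175 to 141100572, minus strand) was the highest member. Its level was 168.7 TPM in replicate 1, 152.7 TPM in replicate 2, 151.4 TPM in replicate 3 and 156.0 TPM in replicate 4, a mean of 157 ± 7.91 TPM (SD, n = 4) on 3076 to 8505 counts, above 95.2% of protein-coding genes. Replicate 1 was the highest and the other libraries lay within a few TPM of each other. Sigirr exceeded Il18r1 by a log2 ratio of 1.42 ± 0.21, which is 2.67-fold, in 4 of 4 libraries. Without the length correction that log2 ratio was 0.75, so its size depends on the exon lengths of 3043 bases for Sigirr and 4817 bases for Il18r1. Against Il1r1 the log2 ratio was 10.35 ± 0.28 with 0.1 TPM added, and 7.27 and 12.5 with 1 and 0.01 TPM.

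**Figure D3:**
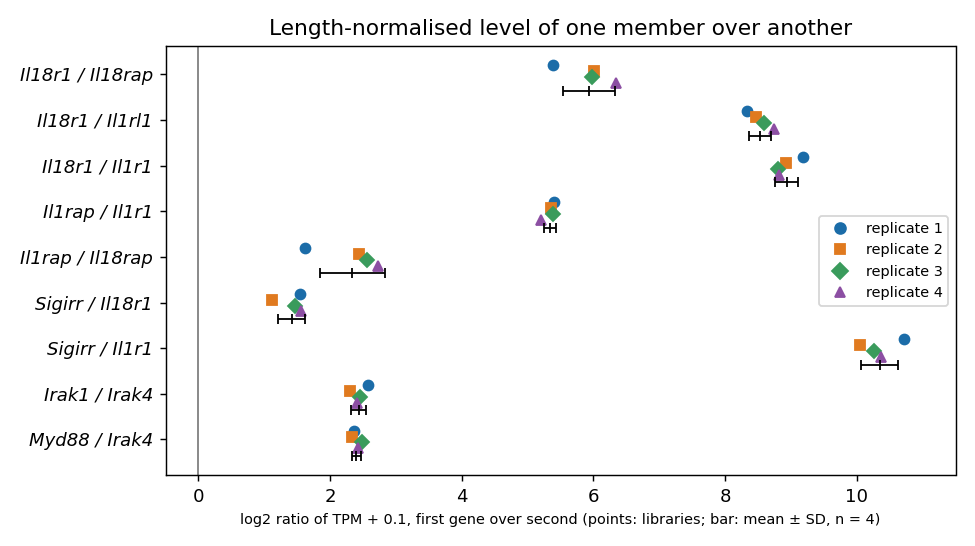
Log2 ratio of one member's TPM over another's after adding 0.1 TPM, by library, with mean ± SD (n = 4). All 9 ratios are positive in all 4 libraries, from 1.42 for Sigirr over Il18r1 to 10.35 for Sigirr over Il1r1.

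Of the adaptor and kinases that act after the signalling receptors, Myd88 and Irak1 stood near the level of Sigirr and Irak4 below that of Il18r1. Myd88 (ENSMUSG00000032508.8, chromosome 9, 119335934 to 119341411, minus strand) had 114.1 TPM in replicate 1, 128.2 TPM in replicate 2, 126.4 TPM in replicate 3 and 128.4 TPM in replicate 4, a mean of 124 ± 6.87 TPM. Replicate 1 lay below the others. Irak1, the kinase that leaves the complex towards Traf6 (ENSMUSG00000031392.18, chromosome X, 74013914 to 74023918, minus strand), had 131.7, 126.7, 124.3 and 126.4 TPM in replicates 1 to 4, a mean of 127 ± 3.16 TPM and the smallest coefficient of variation of the members (2.48%). Irak4, the kinase that joins Myd88 first (ENSMUSG00000059883.16, chromosome 15, 94543643 to 94581815), had 22.0, 25.5, 22.6 and 23.8 TPM, a mean of 23.5 ± 1.53 TPM (SD, n = 4 for each). Irak1 exceeded Irak4 by a log2 ratio of 2.44 ± 0.11, or 5.41-fold, and Myd88 exceeded Irak4 by 2.40 ± 0.07, or 5.28-fold, each in 4 of 4 libraries. Without the length correction the log2 ratio of Myd88 over Irak4 was 1.44 and that of Irak1 over Irak4 was 2.35.

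Ordered by mean TPM, the members ran Sigirr, Irak1, Myd88, Il18r1, Irak4, Il1rap, Il18rap, Il1rl1, Il1r1 and Il1r2. Neighbours in that order had ranges over the libraries that did not overlap, except for Irak1 and Myd88, Il1rl1 and Il1r1, and Il1r1 and Il1r2. Irak1 lay above Myd88 in only 1 of 4 libraries, so these genes cannot be ordered. The order of the last 3 rests on a few counts. Without the length correction Irak1 (172 CPM) lay above Sigirr (137 CPM).

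Among the fixed genes of the same pathway outside the members, 39 of 66 reached 1 TPM in every library (59.1%), beside 45.7% of all protein-coding genes. Of the 8 matched ligands none did. Il1b had 28 counts over the 4 libraries (0.263 ± 0.168 TPM), Il18 had 2, Il33 had 1, and Il1a, Il1f6, Il1f8, Il1f9 and Il1f10 had none, where 3 counts would have given between 0.228 and 0.835 TPM at most. Il18r1 was therefore present in libraries with next to no message of its ligand. Of the 3 matched secreted antagonists, Il18bp, which binds interleukin-18, stood at 7.77 ± 0.467 TPM (n = 4), Il1rn had 22 counts in all (0.0851 ± 0.0585 TPM) and Il1f5 had none.

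Shares of the signalling lists are to be read against the 45.7% of all protein-coding genes that reached 1 TPM. Of 16 other genes of the Myd88 and Irak complex 12 reached 1 TPM (75.0%), led by the ubiquitin ligase Peli1 (155 ± 7.495 TPM), the kinase adaptor Tab2 (108 ± 6.40 TPM) and Tab1 (54.2 ± 6.52 TPM). The kinase Map3k7 stood at 53.1 ± 5.11 TPM and the ligase Traf6, which acts after Irak1, at 39.9 ± 2.42 TPM. Of the other kinases of the Irak family, Irak2 stood at 18.5 ± 1.66 TPM and Irak3, which is known in macrophages as a brake on this pathway, at 8.94 ± 1.24 TPM, both below Irak1 and Irak4. All 16 NF-kappaB and MAP kinase genes reached 1 TPM, with the inhibitor Nfkbia (381 ± 15.05 TPM), the subunit Rela (229 ± 7.13 TPM) and the kinase Map3k3 (198 ± 1.73 TPM) the highest (SD, n = 4). Of the 9 caspase-1 and inflammasome genes, which mature interleukin-1 and interleukin-18, 4 reached 1 TPM (44.4%, near the share of all protein-coding genes), namely Gsdmd (198 ± 19.7 TPM), Pycard (84.5 ± 3.34 TPM), Aim2 (26.9 ± 3.35 TPM) and Casp1 (2.74 ± 1.27 TPM). Of 11 Toll-like receptors that also use Myd88, 5 reached 1 TPM (45.5%, also near that share), led by Tlr1 (77.65 ± 15.75 TPM), Tlr12 (9.28 ± 1.10 TPM) and Tlr7 (6.64 ± 1.09 TPM).

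**Figure D4:**
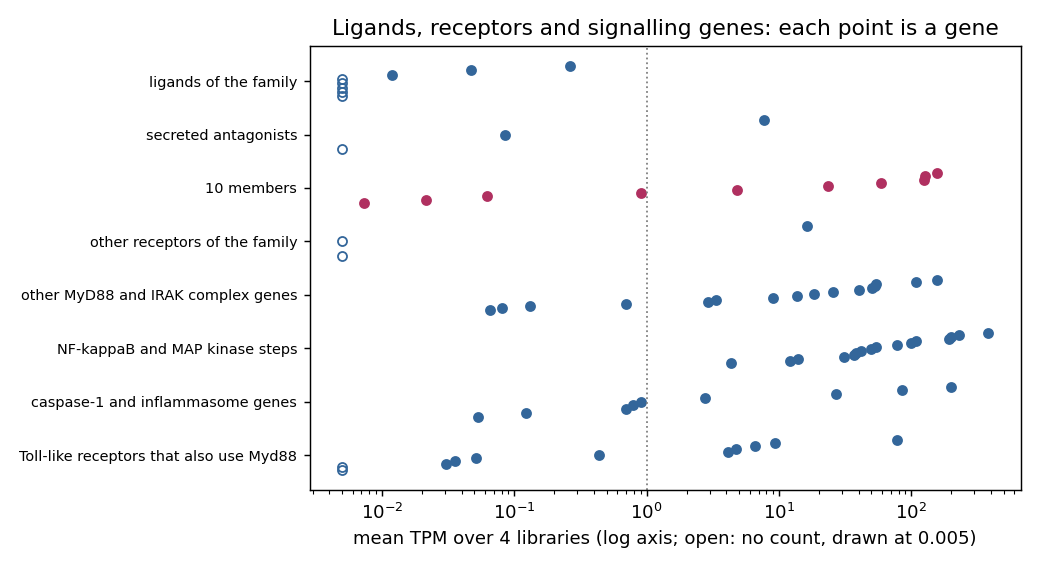
Mean TPM over the 4 libraries (log axis) of every gene of each pathway list, with the 10 members in red, open symbols at the left for genes with no count, and a dotted line at 1 TPM. No ligand reaches 1 TPM, whereas all 16 NF-kappaB and MAP kinase genes lie to the right of it.

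Whether any member varied between libraries more than genes of like abundance was tested in edgeR across 12554 genes, from the residual deviance of an intercept-only fit at the trended dispersion. Of all genes tested, 1.13% (142) were called at a Benjamini-Hochberg adjusted p of 0.05. Of the 7 members with enough counts 0 were called. At an unadjusted edgeR p under 0.05, 657 of all 12554 genes and 1 of the 7 members passed. A cut of 0.05 passes about 1 in 20 genes by chance, near the share of all genes that passed. The member was Il18r1, whose edgeR p was 0.0186 and whose edgeR adjusted p was 0.581. With the trend of DESeq2 none was called either. The highest library exceeded the lowest 1.28-fold for Il18r1, 1.39-fold for Il1rap and 2.27-fold for Il18rap in depth-scaled counts (CPM), and 1.06-fold to 1.15-fold for Sigirr, Myd88, Irak1 and Irak4, beside a median of 1.18-fold over all genes tested. For Il18rap the edgeR adjusted p was 1, so its wider range could not be told from the spread of genes at such low counts. The step recovered 42 of 100 genes simulated with a 1.5-fold change in 1 library and 82 of 100 with a 2-fold change. The changed genes were drawn at random from all genes tested and simulated at the trended dispersion. These rates are therefore not specific to Il18rap or to any other member. Of the 43 other pathway genes tested, 1 was called (2.33%), the receptor Tlr1 (79.6, 99.1, 67.5 and 64.4 TPM in replicates 1 to 4, edgeR adjusted p = 0.00393), which, like Il18r1, was highest in replicate 2. All 5 B cell markers were called variable, and of the 7 regulatory T cell markers 1 was, Il2ra. Il1rl1, Il1r1 and Il1r2 were not tested because of their low counts.

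**Figure D5:**
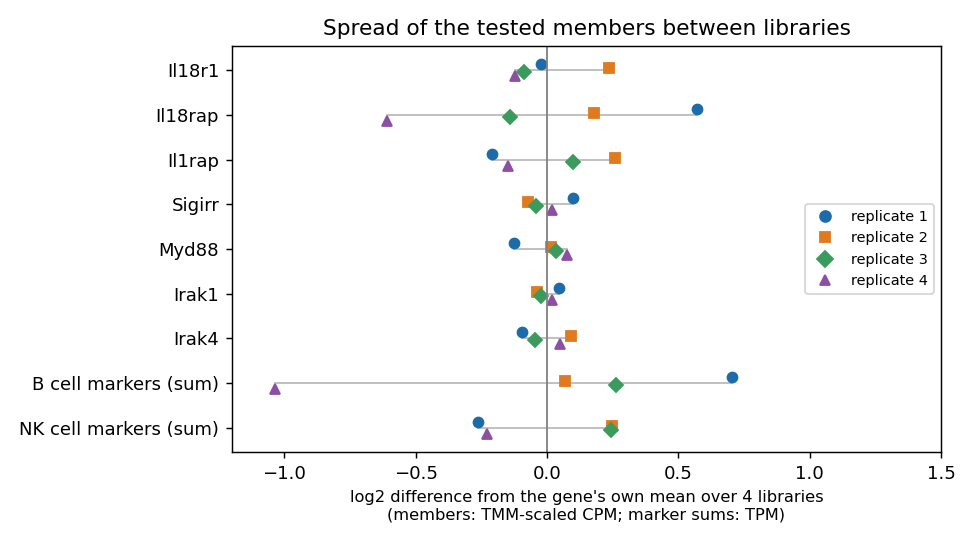
Log2 difference of each library from the mean of the 4, for the 7 tested members (CPM) and for the summed B cell and natural killer cell markers (TPM). Il18rap and the B cell sum are highest in replicate 1 and lowest in replicate 4, whereas Irak1 differs by no more than 1.06-fold between libraries.

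Markers of further cell types, some of them known for members at low level here, were set out too. Their counts are to be read against the 45.7% of all protein-coding genes that reached 1 TPM in every library. The part of such cells in the levels of the members was not tested. Of 5 mast cell and basophil markers, cells known for Il1rl1, none reached 1 TPM, with Fcer1a at 0 counts, Kit at 0.104 ± 0.0183 TPM and Cpa3 at 0.075 ± 0.127 TPM. Of 6 neutrophil markers, cells known for Il1r2, 1 did so, S100a9 at 1.46 ± 0.508 TPM, with S100a8 at 0.417 ± 0.327 TPM and Mpo and Elane at 0 counts. Of 6 macrophage and monocyte markers 2 did so, Lyz2 at 1.78 ± 0.919 TPM and Itgam at 1.60 ± 0.34 TPM. Of 4 stromal markers, Pecam1 at 155 ± 14.7 TPM did so, a gene that T cells express too, and Cdh5 stood at 0.399 ± 0.28 TPM (SD, n = 4).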

How the data were processed

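RNA of 4 libraries of 1 group was measured. The deposited tables hold unnormalized counts of fragments for each gene. According to the file headers, featureCounts (1.4.6-p4) was run by the authors in paired mode on exon features with GENCODE M13, requiring alignment of both mates and strand option 2; fragments with several alignments or over several genes were not counted. Opposite-strand exons (Acaa1a over 11.3% of the exon bases of Myd88, Twf1 over 7.87% of those of Irak4, Gm20319 over 4.86% of those of Il1rap) are therefore separated by strand, and same-strand overlap touched 2.99% of Irak1. Of 50-base words of M21 transcripts, 0% to 15.5% per member (Myd88 highest) occur in another gene on either strand.

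TPM was derived here by dividing counts by the deposited exon length. Symbols and coordinates came from GENCODE M21 (99.6% of identifiers matched), 1-based. The members and lists were chosen with earlier results of these data known. Of 70 pathway symbols 66 matched; Il36a, Il36b, Il36g and Il36rn are listed under their older symbols, which were in the lists. Named are all members, the 3 highest of each pathway list, all ligands and other receptors, the 2 highest markers of each list and the 3 genes most like Il18r1; other pathway genes could be named if they reached 1 TPM in every library. Foxp3, the lower regulatory T cell markers, Gm17970, Map3k8 and markers with no count were named after their values were seen. Ratios used TPM plus 0.1 and an exact sign-flip test. Variability used edgeR 4.0.16 in R 4.3.3 with filterByExpr and TMM, checked on simulated data; DESeq2 1.42.0 gave alternatives. Other steps used Python 3.11.15, numpy 2.4.6, pandas 2.3.3, scipy 1.17.1 and matplotlib 3.10.9. Floors (3 counts) cover counting error only, and the ± values are SDs between libraries. The design has no contrast between groups.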

Additional observations from a re-analysis of the deposited data

Results flagged for a closer look

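In a group of 4, a library was marked where its gap to the nearest other library took a larger share of the whole range than Dixon's critical value. Of 111 genes, ratios and list sums examined, 8 were marked, and chance marks about 1 in 20. Among the members, Myd88 in replicate 1 lay lowest at 114.1 TPM, with the others from 126.4 to 128.4 TPM. Replicate 1 was also lowest for Trac (3230 TPM, others 3483 to 3516 TPM) and for the summed CD4 T cell markers, of which Trac is the largest part (6919 TPM, others 7219 to 7257 TPM). It was lowest too for the summed CD8 T cell markers (37.15 TPM, others 41.6 to 42.3 TPM). Nearly all of that sum is Cd8b1, and Cd8a was not lowest in replicate 1 (0.946 TPM, others 0.476 to 1.11 TPM). Replicate 1 was highest for the kinase Map3k8 (5.35 TPM, others 3.94 to 4.09 TPM). Replicate 2 was highest for Cd69 (70.6 TPM, others 54.7 to 55.1 TPM) and Ddx52 (69.2 TPM, others 56.4 to 57.9 TPM), which were chosen for having values close to those of Il18r1 in each library, so that these marks restate its pattern. It was lowest for Rela (218 TPM, others 231 to 234 TPM).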

How the results depend on the processing

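All 9 ratios between members kept their sign under all 72 alternative values. These took CPM in place of TPM, a denominator of protein-coding genes, 1 or 0.01 TPM in place of 0.1, and left out each replicate in turn. Only the change to CPM could have turned a sign. An equal addition to both genes or a shared denominator cannot do so. Leaving out a replicate cannot either, since each ratio had the same sign in all 4 libraries. With 3 libraries the smallest possible p is 0.25. The number of members at 1 TPM in every library was 6, and 7 were at 1 CPM without the length correction, where Il18rap passed in each library, and no member was called variable under any alternative. The count of all genes called variable, 142, was 88 when every gene with at least 1 count over the libraries was tested, and between 60 and 85 when 1 replicate was left out, which leaves fewer samples; it was 139 with the size factors of DESeq2 and 118 with its trend. Of the recomputed values 182 were counted as staying and 18 as moving. Levels and counts moved if they changed by more than the spread between libraries or 1.5 times. The 72 ratio values were judged by sign and not by size, so all of them are among the 182. The log2 ratio of Il1rap over Il1r1, for instance, was 5.34 ± 0.09 with 0.1 TPM added. It was 2.50 with 1 TPM and 7.49 with 0.01 TPM added, and still counted as staying. Without the length correction the mean of Il1rap was 15.7 CPM, beside 4.82 TPM. With protein-coding genes alone as the denominator the mean of Sigirr was 176 TPM. With a threshold of 5 TPM, 3 Toll-like receptors counted as present in place of 5. Without replicate 1 the mean of Il18rap was 0.776 TPM, and without replicate 2 that of Il18r1 was 55.3 TPM. No paired analysis was possible because the labels give 1 group. Counts of 0 to 12 per library limit Il1rl1, Il1r1 and Il1r2 to a description.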
